A study of Mus musculus with 6 samples.

Results

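Expression of 48 genes of transforming growth factor beta (TGF-beta) and bone morphogenetic protein (BMP) signalling was measured in primary endothelial cell cultures from mice. By the study's methods, the cultures were prepared from the stria vascularis with the spiral ligament. Both lie in the cochlear lateral wall, and the stria vascularis is its vascularized epithelium. The genes were chosen by symbol for their known role in the pathway, and all 48 were found among the 24421 genes of the deposited table. They comprise 12 ligands and activin subunits, 12 receptors and co-receptors, 9 Smads or Smad corepressors, 7 secreted antagonists, 4 latent binding proteins and 4 *Id* genes. RNA was sequenced from 3 cultures of *Nhe6*-knockout mice, which carry a targeted gene disruption, and from 3 cultures of wildtype mice. The labels give a C57BL/6N background for every sample, whereas the study's methods name the C57BL/6J substrain. The mice were sacrificed on postnatal days 10 to 12, each culture was pooled from several mice, and no culture was treated. The disruption was carried by the whole animal and was not limited to endothelial cells, and the knockout came from 1 line of mice.

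TGF-beta family ligands are secreted dimers that assemble a complex of type I and type II receptors on the cell surface. The type I receptor then phosphorylates receptor-regulated Smads, which enter the nucleus with the common Smad4 and act on target genes. Broadly, Smad2 and Smad3 carry TGF-beta and activin signals, and Smad1, Smad5 and Smad9 carry BMP signals. The inhibitory Smad6 and Smad7 and the *Id* genes are classical early targets that rise when the pathway is active. Secreted antagonists bind BMPs or activins outside the cell, and latent TGF-beta binding proteins hold TGF-beta in the extracellular matrix in an inactive form. In endothelial cells BMP signalling through the receptor ALK1, encoded by *Acvrl1*, is known for its part in vessel quiescence.

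Normalized read counts are counts scaled with the TMM method to the mean library size, and the values of a genotype are given in the order of its replicates 1, 2 and 3. The library totals on genes ran from 25587097 to 29126232 reads. Wildtype replicate 2 stood apart from the other libraries, with a first principal component score of 106 against scores from -28.5 to -6.52, and that component held 50.2% of the variance. *Nhe6*-knockout replicates 1 and 2 lay closest to each other, yet their counts differed by more than sampling noise, with a chi-square of 4.89 per gene against 89.6 to 397 for the other pairs within a genotype. The endothelial label was checked against 20 marker genes, of which 10 passed the filter on low counts. *Cldn5*, *Sox17* and *Robo4* had 0 reads in every library, which allows up to 3 reads each, and *Pecam1* had at most 8 reads. *Emcn* had 18387, 17401 and 9897 normalized counts in the knockout and 13408, 409 and 14726 in the wildtype cultures. The summed level of the endothelial list was 16898 to 25954 in knockout and 15976 to 23657 in wildtype cultures, and *Emcn* made up most of it in 5 of the 6 libraries. The VE-cadherin gene *Cdh5* had 219.8, 232 and 179 normalized counts in knockout and 2509, 5194 and 3469 in wildtype cultures and fell in knockout cultures (log2 fold change -4.15, edgeR adjusted p = 0.0133). Of the 10 endothelial markers tested, 5 had a log2 fold change above 0 and 5 below. An unadjusted p under 0.05 in edgeR's test was found for 3 of the 10, beside 11.8% of all genes tested. DESeq2 called 2 of the 10, beside 4.69%, and the genotypes did not overlap for 2 of the 10, beside 19.9%. The markers in these 3 counts were all lower in knockout cultures. Without wildtype replicate 2, edgeR called 2 endothelial markers, 1 higher and 1 lower. *Vwf*, below the filter, had 15.9, 23.2 and 5.68 normalized counts in knockout and 3.91, 0 and 1.07 in wildtype cultures. Fibroblast markers were abundant, with 14 of 15 at mean normalized counts of 100 or more and sums of 243398 to 281149 in knockout and 187631 to 323372 in wildtype cultures. The genotypes did not overlap for 5 of the 15 (33.3%, beside 19.9% of all genes tested), with 4 higher and 1 lower in knockout cultures. DESeq2 called 2 fibroblast markers (14.3%, beside 4.69%), both higher. All 12 cell cycle genes were tested, and their sum was 7459 to 13515 in knockout against 2227 to 3502 in wildtype cultures. The part of cell composition and cell cycle in the values below was not tested. In cultures measured in bulk, fewer cells of a type and less RNA per cell cannot be told apart.

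No TGF-beta or BMP gene passed the threshold of 0.05 on the adjusted p of edgeR's quasi-likelihood test. The background was low, since 9 of 13479 genes (0.0668%) passed. Of the 48 genes, 47 had enough reads to be tested and *Nog*, with at most 14 reads in a library, did not. The log2 fold change of *Nhe6*-knockout over wildtype was above 0 for 25 genes and below 0 for 22, with a median of 0.024 beside -0.016 over all genes tested. For 31 of the 47 genes (66.0%) the log2 fold change lay within 0.5 of 0, beside 76.8% of all genes tested, so that a larger share of the 47 lay beyond it. An unadjusted p under 0.05 was found for 6 genes (12.8%), and the same held for 11.8% of all genes tested. The 3 knockout values did not overlap the 3 wildtype values for 7 genes (14.9%), beside 19.9% of all genes tested. *Acvrl1*, *Bambi* and *Ltbp2* were higher in every knockout culture, and *Bmp7*, *Smad4*, *Chrdl1* and *Nbl1* were lower in every knockout culture. The Wald test of DESeq2 called *Chrdl1* and *Nbl1*, 2 of 46 genes (4.35%), against a background of 4.69% of 13381 genes. *Inhba* received no p from DESeq2 because of an outlying count. Without wildtype replicate 2, edgeR called none of the 47, while it called 2.88% of 13728 genes. The shares of calls, of unadjusted p under 0.05 and of genes without overlap were thus near or below the background.

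**Figure D1:**
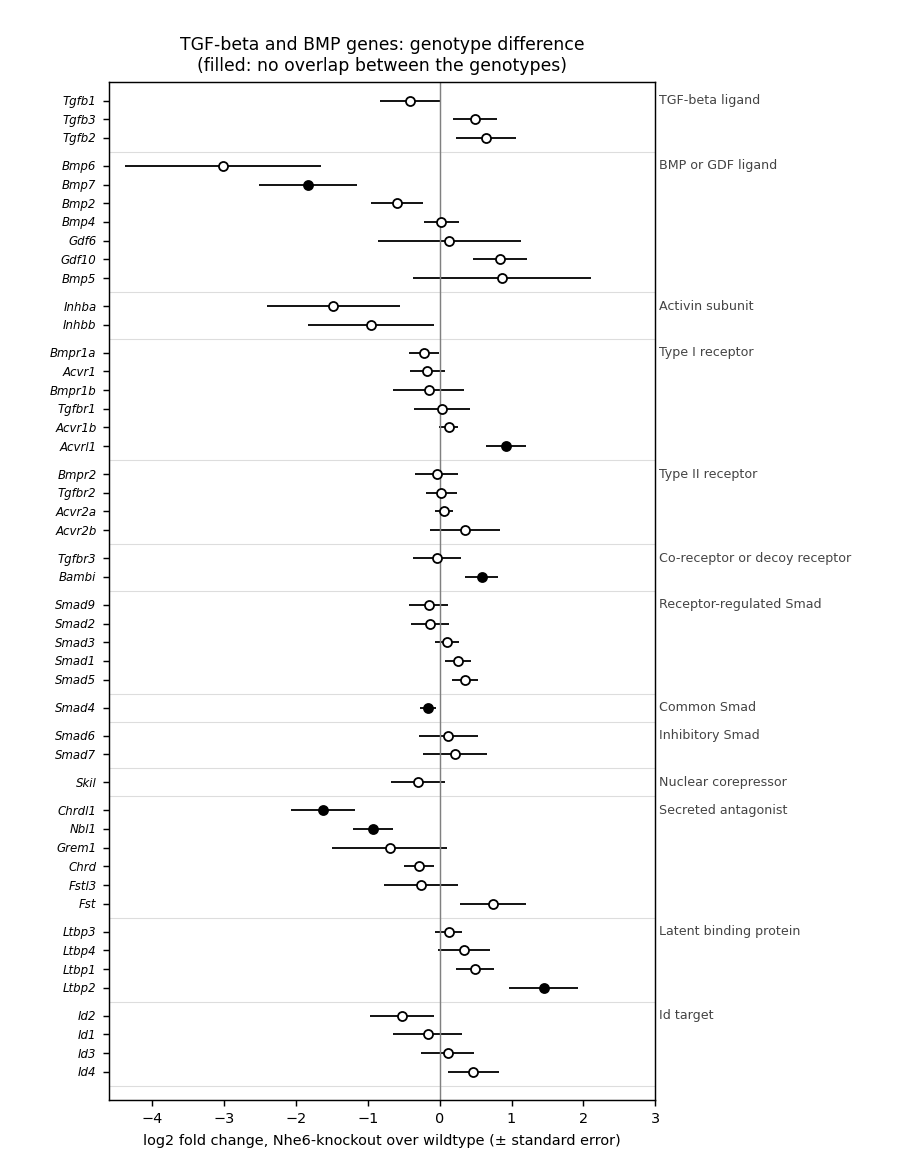
Log2 fold change of *Nhe6*-knockout over wildtype (x axis) for the 47 genes tested, ordered by role, with lines of ± 1 standard error from edgeR's fit. Filled points mark the 7 genes whose genotypes did not overlap, and most open points lie within 0.5 of 0, while *Bmp6* at -3.02 and *Bmp5* at 0.87 have the widest lines among the ligands and stand at -1.57 and 0.28 without wildtype replicate 2.

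Levels were compared between genes as RPKM, the reads per kilobase of merged exon scaled to the library total. The highest level belonged to *Nbl1*, a secreted BMP antagonist also called DAN, at 156 ± 45.3 in knockout and 296 ± 70.3 in wildtype cultures (SD, n = 3 each). The betaglycan gene *Tgfbr3* followed in wildtype cultures with 89.5 ± 30.6 and *Id3* with 82.5 ± 33.6 (SD, n = 3), and these neighbours did not differ beyond their spread. The receptors *Bmpr1a* and *Tgfbr2* reached 65.7 ± 15.1 and 63.9 ± 6.95 in wildtype cultures (SD, n = 3), again within each other's spread. *Smad4* reached 37.6 ± 2.47 and *Ltbp3* 36.0 ± 7.03 in wildtype cultures (SD, n = 3). At the low end *Bmpr1b*, *Nog* and *Acvr2b* had wildtype levels of 0.105 ± 0.0531, 0.118 ± 0.166 and 0.143 ± 0.0800 (SD, n = 3). The cultures thus held transcripts for each step of the pathway, and the mean normalized count reached 100 or more for 42 of the 47 genes tested.

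**Figure D2:**
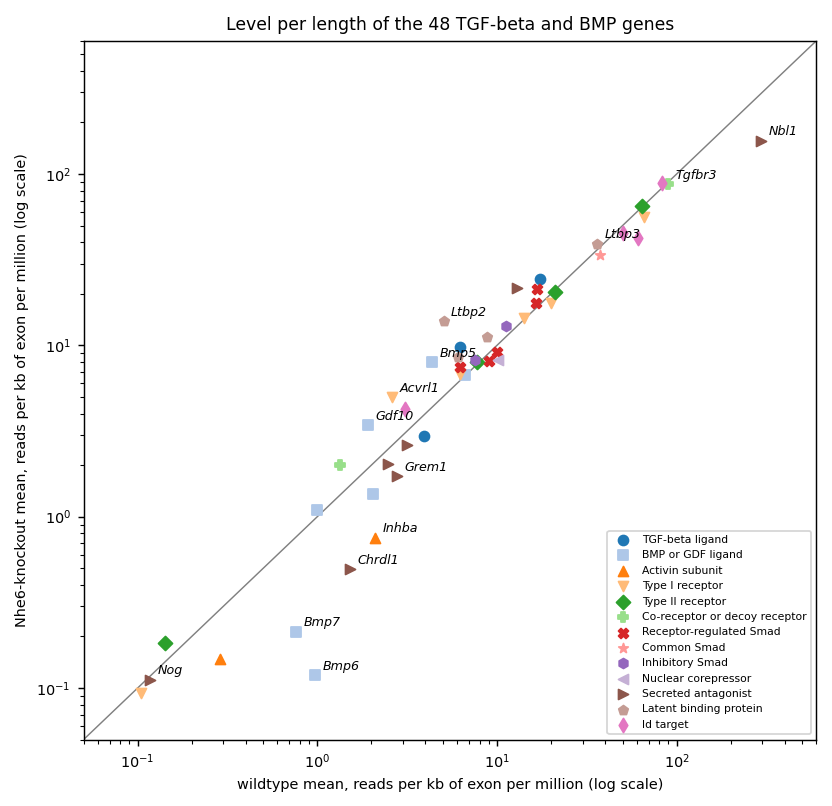
Mean level of each of the 48 genes in *Nhe6*-knockout (y axis) against wildtype cultures (x axis), both in RPKM on log scales, with the marker shape giving the role and the line marking equal levels. *Nbl1* is the highest gene in both genotypes and lies below the line, *Ltbp2* and *Acvrl1* lie above it, and *Bmp6*, *Bmp7* and *Chrdl1* lie below it at low levels.

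Of the 3 TGF-beta ligands, *Tgfb3* was the most abundant, with normalized counts of 1951, 1943 and 2911 in knockout and 1833, 983 and 2016 in wildtype cultures. The genotypes overlapped, and the lowest value was that of wildtype replicate 2 (log2 fold change 0.49, SE 0.31, edgeR adjusted p = 0.599). *Tgfb2* had 1489, 1459.5 and 1738 normalized counts in knockout and 778, 525 and 1692 in wildtype cultures. Wildtype replicates 1 and 2 were low for *Tgfb2*, and wildtype replicate 3 lay within the knockout range. *Tgfb1* ran the other way, with 879 normalized counts in wildtype replicate 2 as its highest value and 293 and 296 in knockout replicate 3 and wildtype replicate 3 as its lowest.

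Among the 7 BMP and growth and differentiation factor (GDF) ligands, *Bmp7*, a ligand of the BMP branch at chr2:172868012-172940321, was the only one without overlap. It had 22.3, 29.7 and 18.9 normalized counts in knockout and 171, 33.0 and 49.2 in wildtype cultures. The wildtype mean rested on replicate 1. Wildtype replicate 2, at 33.0, lay just above the highest knockout value of 29.7, and wildtype replicate 3, at 49.2, lay further above it. The log2 fold change was -1.83 (SE 0.68, unadjusted p = 0.0344, edgeR adjusted p = 0.370), and it was -0.80 without wildtype replicate 1. *Bmp5*, which had the highest mean count of the 7, had 1007, 1047 and 607 normalized counts in knockout and 749.8, 3.09 and 701 in wildtype cultures. Wildtype replicate 2 was nearly devoid of *Bmp5* reads, and the other wildtype cultures lay within the knockout range (log2 fold change 0.87, SE 1.24, edgeR adjusted p = 0.842), and without that library the log2 fold change was 0.28. *Gdf6* showed the same low value in wildtype replicate 2, at 4.12 normalized counts against 93.8 to 178 in the other cultures. *Bmp6* was at its highest there, at 238, and ranged from 0 reads in knockout replicate 3, which allows up to 3 reads, to 47.1 elsewhere. Its log2 fold change was -3.02 with all libraries and -1.57 without wildtype replicate 2. *Bmp2* had 86.0, 109.6 and 202 normalized counts in knockout and 210.2, 173 and 216 in wildtype cultures, so that knockout replicates 1 and 2 were low and replicate 3 lay among the wildtype values. *Bmp4* ranged from 321 to 522 with interleaved genotypes. *Gdf10*, a ligand related to BMP3, had 412, 362 and 704 normalized counts in knockout and 232, 197 and 398 in wildtype cultures, and its unadjusted p of 0.0614 in edgeR's test missed 0.05.

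The activin subunit genes *Inhba* and *Inhbb* encode the chains of activin A and activin B. *Inhba* had 126, 136 and 136 normalized counts in knockout and 76.3, 919.5 and 114 in wildtype cultures. The knockout cultures were nearly identical, and wildtype replicate 2 was far above all others. The log2 fold change of -1.48 (SE 0.93, edgeR adjusted p = 0.604) turned to 0.47 when that library was left out. *Inhbb*, at 20.2, 21.4 and 10.4 normalized counts in knockout and 8.80, 78.3 and 13.9 in wildtype cultures, was likewise highest in wildtype replicate 2.

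Of the 6 type I receptors, *Acvrl1* (ALK1; ENSMUSG00000000530.16, chr15:101128522-101145336) was the one without overlap. Its normalized counts were 566, 635 and 552 in knockout and 355, 379 and 189 in wildtype cultures. Every knockout value exceeded every wildtype value, and wildtype replicate 3 was the lowest. The knockout mean was 1.90-fold the wildtype mean by edgeR's fit (log2 fold change 0.92, SE 0.28, unadjusted p = 0.0149, adjusted p = 0.273), and DESeq2 gave an adjusted p of 0.0743. Over the 14 alternative settings its adjusted p ranged from 0.0743 to 0.798. Endoglin (*Eng*), its co-receptor in endothelial cells and 1 of the endothelial markers, had 4468, 5079 and 4630.5 normalized counts in knockout and 4789, 866 and 2721 in wildtype cultures, with overlapping genotypes. *Bmpr1a*, a BMP type I receptor and the most abundant of the 6, had 9722, 8943 and 10883 normalized counts in knockout and 8491, 12640.2 and 13385 in wildtype cultures (log2 fold change -0.22, SE 0.21, edgeR adjusted p = 0.741). The TGF-beta receptor *Tgfbr1* varied among the wildtype cultures, from 1409 normalized counts in replicate 2 to 4137 in replicate 3, a range that enclosed the knockout values. *Acvr1* (ALK2), a BMP receptor, and *Acvr1b* (ALK4), an activin receptor, had log2 fold changes of -0.17 and 0.13, and *Bmpr1b* did not exceed 26.8 normalized counts in any culture.

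The 4 type II receptors had log2 fold changes from -0.043 to 0.35, and none of them separated the genotypes. *Tgfbr2*, the receptor that binds TGF-beta itself, had 16593, 16545 and 10839 normalized counts in knockout and 15102, 12637 and 15548 in wildtype cultures. Knockout replicate 3 was the lowest of the 6 (log2 fold change 0.023, SE 0.21, edgeR adjusted p = 0.975). *Bmpr2*, the BMP receptor mutated in heritable pulmonary arterial hypertension, ranged from 6327 to 13843 normalized counts, with both ends among the wildtype cultures. *Acvr2a* was among the steadiest genes, at 1290.0, 1237 and 1253 normalized counts in knockout and 1155, 1095 and 1379 in wildtype cultures.

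*Tgfbr3* (betaglycan), a co-receptor that presents TGF-beta2 to the type II receptor, had normalized counts of 18677, 17625 and 11033 in knockout and 18024, 9925 and 20477 in wildtype cultures. The lowest value of each genotype, in knockout replicate 3 and wildtype replicate 2, lay well below the other 4 (log2 fold change -0.033, SE 0.33, edgeR adjusted p = 0.976). *Bambi* (chr18:3507923-3516404) encodes a decoy receptor without a kinase domain and is itself a target of the pathway. It had 251, 230.4 and 359 normalized counts in knockout and 178, 197 and 185 in wildtype cultures. The genotypes did not overlap, the wildtype cultures lay close together, and knockout replicate 3 was the highest. Its log2 fold change was 0.58 (SE 0.23, unadjusted p = 0.0404, edgeR adjusted p = 0.393), and it was 0.36 without knockout replicate 3.

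The receptor-regulated Smads did not separate the genotypes and had log2 fold changes from -0.15 (*Smad9*) to 0.35 (*Smad5*). *Smad5*, of the BMP branch and the most abundant, had 4128, 3952 and 4972 normalized counts in knockout and 3172, 2852 and 4198 in wildtype cultures. Its highest wildtype value lay within the knockout range (SE 0.18, edgeR adjusted p = 0.519). *Smad4* (chr18:73639009-73703780), the common partner of both branches, had 3572, 3528 and 3216 normalized counts in knockout and 3657, 4137 and 3758 in wildtype cultures. All 3 knockout cultures lay below all 3 wildtype cultures, but the difference was small (log2 fold change -0.16, SE 0.11, unadjusted p = 0.196, edgeR adjusted p = 0.645). The TGF-beta Smads *Smad2* and *Smad3* had log2 fold changes of -0.14 and 0.10.

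The inhibitory Smads, which block receptors and Smad activation, shared 1 pattern over the 6 libraries. *Smad7* had normalized counts of 917, 1055 and 2871 in knockout and 1221, 1336 and 1631 in wildtype cultures. *Smad6*, the BMP-selective inhibitor, had 482, 458 and 1243 in knockout and 593, 631 and 784 in wildtype cultures. For both genes knockout replicates 1 and 2 were the lowest of all 6 cultures and knockout replicate 3 was the highest. For *Smad7* the log2 fold change was 0.21 (SE 0.45, edgeR adjusted p = 0.897) with all libraries and -0.51 without knockout replicate 3. *Skil*, which encodes the Smad corepressor SnoN, had 1816, 1820.0 and 2983 normalized counts in knockout and 1504, 3978 and 2669.8 in wildtype cultures, with its highest and lowest values both in wildtype cultures (log2 fold change -0.30, SE 0.38, edgeR adjusted p = 0.815).

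The secreted antagonists held both genes that DESeq2 called. *Chrdl1* (ENSMUSG00000031283.16, chrX:143285674-143394262), a chordin-like protein that binds BMPs, had 53.1, 79.0 and 143 normalized counts in knockout and 183, 301 and 368 in wildtype cultures. Every knockout value lay below every wildtype value, and the wildtype mean was 3.09-fold the knockout mean. The log2 fold change was -1.63 (SE 0.45), with an unadjusted p of 0.00961 and an adjusted p of 0.231 by edgeR and an adjusted p of 0.0178 by DESeq2. *Nbl1* (ENSMUSG00000041120.6, chr4:139082284-139092993) had 7051, 7527 and 11670.4 normalized counts in knockout and 20288, 17097 and 12458 in wildtype cultures. The genotypes did not overlap, but knockout replicate 3 and wildtype replicate 3 were close to each other. The wildtype mean was 1.90-fold the knockout mean (log2 fold change -0.93, SE 0.28, unadjusted p = 0.0138), with adjusted p-values of 0.267 by edgeR and 0.0407 by DESeq2. Both genes were thus on opposite sides of the threshold in the 2 tools, and over the 14 alternatives the adjusted p ranged from 0.0178 to 0.746 for *Chrdl1* and from 0.0407 to 0.819 for *Nbl1*. *Chrd*, which encodes chordin, had a log2 fold change of -0.29 and overlapping genotypes. *Grem1*, which encodes gremlin, an antagonist of BMP2 and BMP4, had 212, 189.5 and 188 normalized counts in knockout and 348, 39.2 and 570.1 in wildtype cultures. The knockout cultures lay close together and between the wildtype values, which were lowest in replicate 2. The log2 fold change of *Grem1* was -0.70 with all libraries. Without wildtype replicate 2 it was -1.23, with an edgeR adjusted p of 0.0628. The activin antagonist *Fst* (follistatin) had 2155, 2211 and 3889 normalized counts in knockout and 2252, 707 and 1973 in wildtype cultures, with its highest value in knockout replicate 3 and its lowest in wildtype replicate 2. Its relative *Fstl3* ranged from 85.6 to 385 normalized counts, and both ends were again wildtype cultures. Exons of *Fstl3* overlap *Prss57* on the other strand over 47.3% of their length, but *Prss57* had at most 12 reads in a library.

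The promoter of *Nbl1* is printed because it is the most abundant of the 48 genes and 1 of the 2 that DESeq2 called. It is the RefSeq sequence of chr4:139092921-139093220 (GRCm38.p6, minus strand), from 250 bases before to 50 bases after the transcription start, written 5′ to 3′. Capitals mark matches to GGCGCC, a motif of BMP Smads, and to CAGAC, a Smad motif, each searched on both strands.
*Nbl1*: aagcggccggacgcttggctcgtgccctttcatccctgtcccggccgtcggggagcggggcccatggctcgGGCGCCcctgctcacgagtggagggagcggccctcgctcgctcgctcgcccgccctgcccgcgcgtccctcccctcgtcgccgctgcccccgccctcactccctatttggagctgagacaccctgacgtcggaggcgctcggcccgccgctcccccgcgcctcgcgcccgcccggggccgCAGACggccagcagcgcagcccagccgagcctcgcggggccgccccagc
It held 1 match to GGCGCC and 1 to CAGAC. RefSeq promoters were found for 33 of the 48 genes, 41 promoters in all. Of these, 15 (36.6%) held GGCGCC, beside 11.9% of all 32851 promoters of the same length, and 20 (48.8%) held CAGAC, beside 49.6% of all. The GC content differed too, with a median of 66.3% for the 41 promoters and 52.7% for all, and its part in the share with GGCGCC was not tested. A match is a description of the letters and not a site of binding. *Tgfb3*, *Bmp2*, *Bmp7*, *Gdf6*, *Acvrl1*, *Tgfbr3*, *Bambi*, *Smad2*, *Smad4*, *Smad7*, *Skil*, *Nog*, *Chrdl1*, *Fst* and *Id1* were not matched.

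The 4 latent binding proteins had log2 fold changes above 0, from 0.12 for *Ltbp3* to 1.45 for *Ltbp2*. *Ltbp2* (ENSMUSG00000002020.15, chr12:84783212-84876532) encodes a microfibril protein that, unlike its relatives, does not bind latent TGF-beta. It had 2079.9, 2337 and 4917 normalized counts in knockout and 836, 740.1 and 1845 in wildtype cultures. The genotypes did not overlap, and replicate 3 was the highest culture of each genotype. The knockout mean was 2.73-fold the wildtype mean (log2 fold change 1.45, SE 0.48, unadjusted p = 0.0218), with adjusted p-values of 0.319 by edgeR and 0.0549 by DESeq2. Leaving out 1 culture moved it to 0.95 without knockout replicate 3 and 1.98 without wildtype replicate 3. A gene on the other strand, *D030025P21Rik*, overlaps 9.34% of the *Ltbp2* exons and had at most 20 reads in a library. *Ltbp3*, the most abundant of the 4, had 9609.7, 10663 and 9181 normalized counts in knockout and 9993, 10054 and 6979 in wildtype cultures, with wildtype replicate 3 the lowest (SE 0.18, edgeR adjusted p = 0.849). *Ltbp4* was lowest in the same culture, at 789 normalized counts against 1706 to 2348 in the others, and *Ltbp1* ranged from 1349 in wildtype replicate 2 to 2951 in knockout replicate 1. The promoter of *Ltbp2*, the gene with the largest positive log2 fold change of the 47, is the RefSeq sequence of chr12:84876442-84876741 (GRCm38.p6, minus strand, the same window and capitals).
*Ltbp2*: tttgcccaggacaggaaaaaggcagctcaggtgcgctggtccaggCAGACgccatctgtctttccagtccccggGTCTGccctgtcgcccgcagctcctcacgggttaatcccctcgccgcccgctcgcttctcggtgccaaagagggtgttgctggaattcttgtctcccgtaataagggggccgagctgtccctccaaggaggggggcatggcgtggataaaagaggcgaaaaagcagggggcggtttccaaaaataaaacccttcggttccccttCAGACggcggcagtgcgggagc
It held 3 matches to CAGAC and none to GGCGCC.

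**Figure D3:**
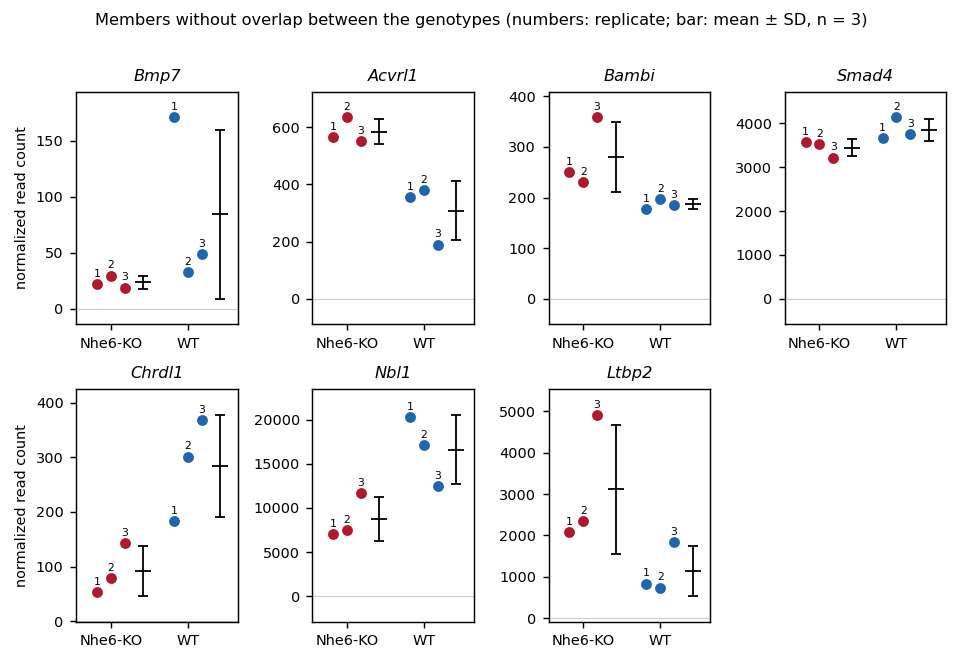
Normalized read counts (y axis, with 0 marked by a grey line) of the 7 genes without overlap between the genotypes, with each culture as a point numbered by replicate and a bar for the mean ± SD (n = 3). The lowest knockout value of *Acvrl1*, 552, lies clear of its highest wildtype value, 379, whereas the genotypes nearly touch for *Nbl1*, *Bmp7* and *Smad4*, and knockout replicate 3 is the highest knockout culture for *Bambi*, *Chrdl1*, *Nbl1* and *Ltbp2*.

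The *Id* genes encode inhibitors of basic helix-loop-helix transcription factors and are direct BMP targets. *Id1* had normalized counts of 880.2, 839.9 and 2597 in knockout and 1201, 1620.5 and 2019 in wildtype cultures. As for the inhibitory Smads, knockout replicates 1 and 2 were the lowest cultures and knockout replicate 3 was the highest. *Id2* had 1878, 1889 and 4747 normalized counts in knockout and 2607, 4108 and 5521 in wildtype cultures, with the same low pair and with knockout replicate 3 second to wildtype replicate 3. *Id3*, the highest of the 4 in RPKM, was high in knockout replicate 3 and wildtype replicate 1, at 6339.6 and 5985 normalized counts, and between 3064 and 3807 in the others (log2 fold change 0.11, SE 0.37, edgeR adjusted p = 0.939). *Id4* ranged from 179 in wildtype replicate 3 to 516 in knockout replicate 1. None of the 4 separated the genotypes, and their log2 fold changes ran from -0.52 to 0.47. The promoters of *Id2*, *Id3* and *Smad6* are shown because these genes are known BMP targets, and come from chr12:25096043-25096342 (minus strand), chr4:136143572-136143871 (plus strand) and chr9:64022010-64022309 (minus strand) of GRCm38.p6, with the same window and capitals.
*Id2*: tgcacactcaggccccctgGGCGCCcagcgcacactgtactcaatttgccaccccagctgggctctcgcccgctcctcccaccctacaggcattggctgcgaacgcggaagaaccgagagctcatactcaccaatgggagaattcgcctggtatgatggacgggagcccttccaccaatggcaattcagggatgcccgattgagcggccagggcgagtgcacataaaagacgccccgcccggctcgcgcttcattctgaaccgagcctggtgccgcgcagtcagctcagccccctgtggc
*Id3*: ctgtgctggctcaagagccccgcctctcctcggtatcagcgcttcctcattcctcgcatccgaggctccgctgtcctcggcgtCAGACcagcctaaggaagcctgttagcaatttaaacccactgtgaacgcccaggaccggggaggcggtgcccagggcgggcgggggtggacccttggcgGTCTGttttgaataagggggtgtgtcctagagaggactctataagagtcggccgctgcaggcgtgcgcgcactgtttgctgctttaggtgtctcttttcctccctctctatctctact
*Smad6*: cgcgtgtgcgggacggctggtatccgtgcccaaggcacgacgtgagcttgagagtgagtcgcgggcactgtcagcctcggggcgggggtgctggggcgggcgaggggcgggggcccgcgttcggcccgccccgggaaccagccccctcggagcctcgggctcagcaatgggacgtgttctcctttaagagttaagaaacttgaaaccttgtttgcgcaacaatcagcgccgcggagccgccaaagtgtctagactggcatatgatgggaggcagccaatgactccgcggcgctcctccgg
The *Id2* window held 1 match to GGCGCC, the *Id3* window 2 to CAGAC, and the *Smad6* window neither.

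Much of the variation of the 48 genes was between cultures of 1 genotype. A library was counted as set apart for a gene where its normalized count plus 1 lay at least 1.5-fold beyond the nearest of the other 5. Wildtype replicate 2 was set apart for 11 of 47 genes (23.4%), beside 16.5% of all genes tested. It was the highest for *Tgfb1*, *Bmp6*, *Inhba*, *Inhbb* and *Fstl3* and the lowest for *Tgfb3*, *Bmp5*, *Gdf6*, *Tgfbr1*, *Grem1* and *Fst*. Knockout replicate 3 was set apart for 6 genes (12.8%), beside 2.58% of all genes tested, being the highest for *Gdf10*, *Smad6*, *Smad7*, *Fst* and *Ltbp2* and the lowest for *Bmp6*. Wildtype replicate 3 was set apart for 5 genes (10.6%, beside 5.00%), wildtype replicate 1 for *Bmp7* alone, and knockout replicates 1 and 2 for none. These counts describe single libraries and carry no test of a difference between the genotypes.

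**Figure D4:**
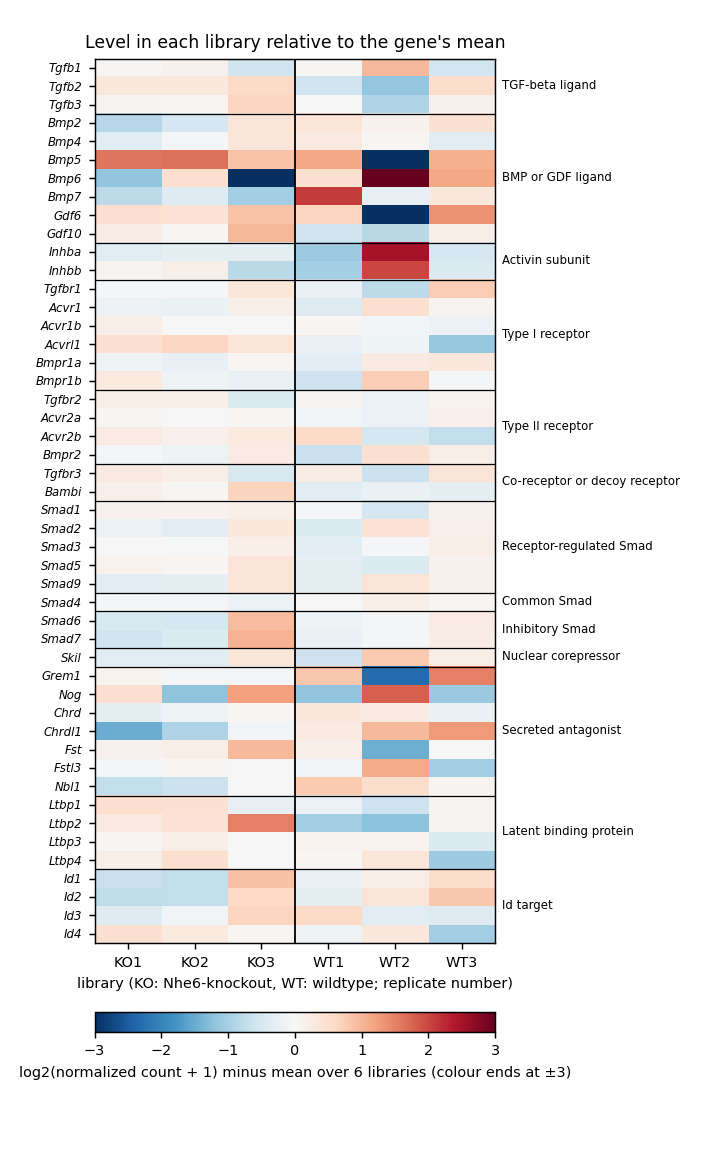
Level of each of the 48 genes (rows, by role) in each library (columns, KO for *Nhe6*-knockout and WT for wildtype, with the replicate number), as log2(normalized count + 1) minus the gene's mean over the 6 libraries, with colours ending at ± 3. The strongest colours lie in wildtype replicate 2 for *Bmp5*, *Bmp6*, *Gdf6*, *Inhba*, *Inhbb* and *Grem1* and in knockout replicate 3 for *Bmp6*, while most receptors and receptor-regulated Smads stay pale.

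**Figure D5:**
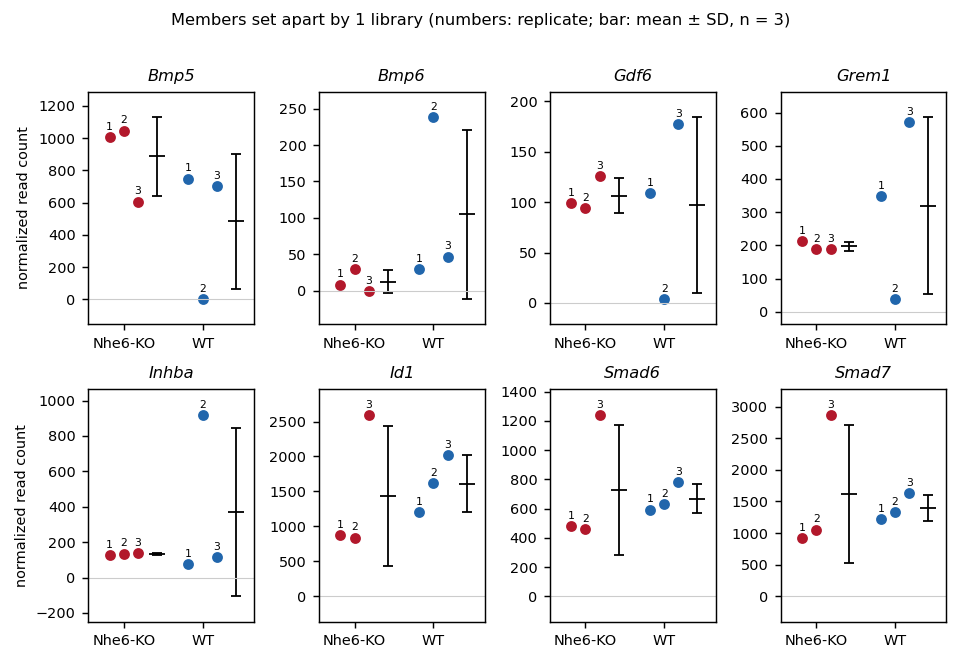
Normalized read counts (y axis) of 8 genes in each culture, numbered by replicate, with the mean ± SD of each genotype (n = 3) as a bar. Wildtype replicate 2 lies apart for *Bmp5*, *Bmp6*, *Gdf6*, *Grem1* and *Inhba*, and knockout replicate 3 lies above knockout replicates 1 and 2 for *Id1*, *Smad6* and *Smad7*.

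A wider list of 68 other genes of the pathway, of which 45 were tested, gave no call by edgeR, and DESeq2 called 3 (6.82% of those with a p, beside 4.69% of all genes). An unadjusted p under 0.05 was found for 7 (15.6%, beside 11.8%). The genotypes did not overlap for 10 of them (22.2%, beside 19.9% of all genes tested). Of the 7 with an unadjusted p under 0.05, 4 were higher and 3 lower in knockout cultures. By the 4 smallest unadjusted p in each direction, the higher genes were *Dcn*, *Fbn2*, *Kcp* and *Furin*. The lower ones included *Zfyve9*, *Twsg1* and *Rgma*, and these 4 lower genes were not all under 0.05. *Dcn* encodes decorin, a matrix proteoglycan that binds TGF-beta and also 1 of the fibroblast markers, and had 4048, 3832 and 4833 normalized counts in knockout and 1969.9, 1861 and 2513 in wildtype cultures. Its genotypes did not overlap (log2 fold change 1.00, SE 0.17, edgeR adjusted p = 0.0952, DESeq2 adjusted p = 5.42e-05). *Fbn2* encodes fibrillin-2, a microfibril protein to which latent complexes and BMPs attach, and had 5253, 5355 and 6088 normalized counts in knockout and 1915, 1537 and 3079 in wildtype cultures. The knockout cultures were again all higher (log2 fold change 1.35, SE 0.27, edgeR adjusted p = 0.114, DESeq2 adjusted p = 3.40e-04). The highest adjusted p over the alternatives was 0.471 for *Dcn* and 0.473 for *Fbn2*. *Kcp*, a kielin/chordin-like protein that modulates BMP signalling, had 31.9, 31.6 and 52.0 normalized counts in knockout and 11.7, 16.5 and 7.49 in wildtype cultures. *Furin*, the protease that cleaves TGF-beta family precursors, had 2948, 3301 and 3306 normalized counts in knockout and 2445, 2411 and 1807 in wildtype cultures, and *Twsg1*, which binds BMPs with chordin, had 9041, 8538 and 10168 in knockout and 12663, 10128 and 14913 in wildtype cultures.

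Of 26 listed TGF-beta target genes, 24 were tested and 1 (4.17%, beside 0.0668% of all genes tested) passed the threshold, *Tgfbi*, which was known to pass when the list was written. The other shares of the list were 4.17% without overlap beside 19.9% of all genes, 8.33% with an unadjusted p under 0.05 beside 11.8%, and 4.76% called by DESeq2 beside 4.69%. *Tgfbi* encodes a TGF-beta-induced matrix protein and had 36582, 35893 and 30589.8 normalized counts in knockout and 7144, 8174 and 7409 in wildtype cultures, so that its knockout level rose 4.53-fold (log2 fold change 2.18, SE 0.16, edgeR adjusted p = 0.0133). It did not pass in edgeR's test when any culture other than wildtype replicate 2 was left out, with a replicate block or with knockout replicates 1 and 2 summed, and its adjusted p ranged from 3.12e-44 to 0.181 over the 14 alternatives. No other target passed in edgeR's test. Of the 24 tested, 7 had a log2 fold change above 0 and 17 below, with a median of -0.20, which was 0.21 without wildtype replicate 2. That library had 16257 normalized counts of *Acta2* (smooth muscle actin), 5334 of *Tagln* and 27158 of *Col1a1*, against 29.3 to 1204, 74.3 to 842 and 207 to 1227 in the other 5 libraries. *Acta2* and *Col1a1* are also mural and fibroblast markers. *Fn1*, which encodes fibronectin, had 34782, 35748 and 52239 normalized counts in knockout and 44075, 102434 and 88463 in wildtype cultures (log2 fold change -0.94, SE 0.37, edgeR adjusted p = 0.399). *Snai1* and *Snai2*, transcription factors of mesenchymal transition, had log2 fold changes of 0.41 and 0.57, and the collagen receptor subunit *Itga11* of 0.48.

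Of 25 BMP target genes, 6 of them also among the 48 (the *Id* genes, *Smad6* and *Smad7*), 22 were tested. None passed in edgeR's test, 3 had an unadjusted p under 0.05 (13.6%, beside 11.8% of all genes), and DESeq2 called those 3 (14.3%, beside 4.69%), *Sp7*, *Tbx20* and *Unc5b*, all higher in knockout cultures. *Tbx20*, a T-box transcription factor, had 124, 95.7 and 249.8 normalized counts in knockout and 7.82, 3.09 and 20.3 in wildtype cultures (log2 fold change 3.90, SE 0.75, edgeR adjusted p = 0.114, DESeq2 adjusted p = 8.46e-06). *Sp7*, the osteoblast factor osterix, had 53.1, 62.2 and 80.4 in knockout and 8.80, 9.28 and 17.1 in wildtype cultures, and *Unc5b*, a netrin receptor of endothelial cells, had 2194, 2163 and 4726 in knockout and 801, 1152 and 797 in wildtype cultures. The genotypes did not overlap for 6 of the 22 (27.3%, beside 19.9% of all genes tested), which were these 3 with *Dlx5*, *Gata6* and *Hmox1*, all higher in knockout cultures. *Gata6* and *Hmox1* were named after their values were seen. At the lower end, *Hey1*, *Msx1*, *Gata2* and *Tmem100* had log2 fold changes of -2.08, -2.60, -0.74 and -0.40. *Msx1* had 2596 normalized counts in wildtype replicate 2 against 110.5 to 173 in the other libraries, and without that library its log2 fold change was 0.25.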

How the data were processed

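Poly(A)-enriched, stranded libraries of 3 *Nhe6*-knockout and 3 wildtype endothelial cultures were sequenced for 75 cycles. The authors deposited raw read counts per gene symbol, not normalized. The submitters' processing notes name bcl2fastq 2.20.0.422, STAR 2.7.7a, HTSeq 0.13.5, DESeq2 1.26.0 and mm10. The strand setting of the counting is not given in the sources used here. It bears on 8 of the 48 genes, whose exons overlap another counted gene on the opposite strand. Of these overlapping genes *Txndc5* had the most reads, at most 12095 in a library, and it covers 5.74% of the *Bmp6* exons. *Bmp6* had at most 231 reads in a library, and the part of this overlap in its counts was not tested. Reads outside genes, 21.5% to 23.6% per library, were left out.

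Genes were filtered with filterByExpr (minimum count 10), which left 13479 of 24421, normalized with TMM and tested two-sided by quasi-likelihood in edgeR 4.0.16 (R 4.3.3). Genotype was the only term, and p-values were adjusted by Benjamini-Hochberg across the 13479 genes (threshold 0.05). DESeq2 1.42.0, limma-voom (limma 3.58.1), other scalings and filters, a replicate block and leaving out each culture were alternatives. Summing knockout replicates 1 and 2 was chosen after seeing the data. A standard error is the size of the log2 fold change divided by the square root of F. An exact permutation test of 3 against 3 cultures cannot give a two-sided p below 0.1, so single values received none. Scripts were tested on simulated data. Gene positions and merged exon lengths came from GENCODE M21 (GRCm38) and promoters from RefSeq (GRCm38.p6). The study's methods state that the cells of each culture were isolated from several mice.

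Statistics in full were given for genes with an unadjusted p under 0.05 or without overlap and for the highest-mean gene of each role. From the wider lists, genes with an adjusted p under 0.05 and the 4 smallest p in each direction could be named. The check of the targeted gene and 1 gene of the wider lists are not reported here. The genes and lists were chosen with earlier results of these data known.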

Additional observations from a re-analysis of the deposited data

How the results depend on the processing

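The number of genes that passed was 9 with edgeR, 9 with DESeq2 size factors, 13 with upper-quartile factors, 21 without a filter beyond 1 count, 21 with at least 10 counts in every library, 627 with DESeq2, 10 with limma-voom and 1 with knockout replicates 1 and 2 summed, and 0 to 395 when 1 culture was left out, with 395 without wildtype replicate 2 and 0 without knockout replicate 3. None of the 48 genes passed under any of these settings except DESeq2, which called 2, and leaving out any 1 culture gave 0. In the wider lists 1 of 81 genes tested passed with edgeR, beside 0.0668% of all genes. DESeq2 called 7 of 77 (9.09%), beside 4.69% of all genes. In these lists 0 genes passed with the 2 knockout cultures summed and 0 to 1 with 1 culture left out. The deviations of same-numbered cultures from their genotype's mean correlated at 0.207, -0.189 and 0.111. Knockout replicates 2 and 3 correlated best with a culture of another number. With 3 cultures per genotype, each taken relative to its genotype's mean, these correlations cannot settle whether the replicate numbers paired the cultures. With the replicate block 2 genes passed in all, 0 of the 48 and 0 of the wider lists.

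Of 251 values for 18 genes under 14 alternatives, 235 kept their direction and side of the threshold. DESeq2 brought *Chrdl1* (-1.63) and *Nbl1* (-0.93) past it. The sign turned for 7 genes, and the cause was not tested. With 1 culture left out, the log2 fold change ran from -1.97 to 0.47 for *Inhba* (above 0 without wildtype replicate 2), -0.081 to 0.19 for *Tgfbr2*, -0.29 to 0.17 for *Tgfbr3*, -0.51 to 0.49 for *Smad7* (below 0 without knockout replicate 3), -0.60 to 0.075 for *Skil* (above 0 without wildtype replicate 2), -0.037 to 0.21 for *Ltbp3* (below 0 without wildtype replicate 3) and -0.25 to 0.49 for *Id3*. With knockout replicates 1 and 2 summed, *Tgfbr2* had -0.076. The depth of at least 25587097 reads per library left *Nog*, *Acvr2b* and *Bmpr1b* with at most 14, 26 and 26 reads in any library.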

Other observations

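Markers of other cells of the cochlear lateral wall were read in the same libraries as a description of the cultures. Of 12 mural markers 11 were tested, and the summed level of the list was 25964 to 26704 normalized counts in knockout and 21315 to 34919 in wildtype cultures. The genotypes did not overlap for 6 of the 11 (54.5%, beside 19.9% of all genes tested), with 5 higher and 1 lower in knockout cultures. An unadjusted p under 0.05 in edgeR's test was found for 3 (27.3%, beside 11.8%), 2 higher and 1 lower. *Pdgfrb*, the receptor that marks pericytes and many fibroblasts, had 18466, 18984 and 18355 in knockout and 14680.0, 7785 and 16711 in wildtype cultures, and *Higd1b* had 0 reads in every library, which allows up to 3 reads. The 12 macrophage markers summed to 689 to 1516 in knockout and 114 to 1731 in wildtype cultures, and *C1qa*, *C1qb* and *Ptprc* had 0 reads in wildtype replicate 2. The 10 pigment cell markers summed to 3034 to 3431 in knockout and 1931 to 5843 in wildtype cultures. Of the 5 tested, 1 had a log2 fold change above 0 and 4 below. Within this list, *Tyrp1* and *Dct* had 289.9 and 178 normalized counts in wildtype replicate 3 and at most 5.15 and 2.06 in the others. *Acvrl1* and *Eng*, endothelial receptors of the BMP branch, had log2 fold changes of 0.92 and 0.76 (edgeR adjusted p = 0.273 and 0.658). The genotypes overlapped for *Eng*, which was lowest in wildtype replicate 2. Of the 10 endothelial markers tested, *Eng* among them, 5 had a log2 fold change above 0 and 5 below. The part of these cells in the levels of the TGF-beta and BMP genes was not tested.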
